A study of Mus musculus with 1019 samples.

Results

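Glucose enters lymphocytes through facilitative transporters and is broken down by a chain of cytosolic enzymes, and 10 genes of that route are described here across regulatory T cells (Tregs) of spleen and fat. They are the transporters Slc2a1 and Slc2a3, the enzymes Aldoa, Tpi1, Gapdh, Pgk1, Pgam1, Eno1 and Pkm, and the lactate dehydrogenase subunit Ldha. The genes were chosen by name and make up 10 of the 23725 rows of the count table. Live cells positive for TCRb, CD4 and CD25 had been sorted from male B6 mice that were 20 months old, out of the spleen or the epididymal fat pad, a visceral adipose tissue (VAT), and their mRNA was sequenced cell by cell in droplets (inDrops). Of the 1019 cells, 36.8% formed the single spleen library, 32.4% VAT library 2 and 30.8% VAT library 3. The libraries held 573622, 556099 and 548770 UMIs (unique molecular identifiers, each counting 1 captured mRNA molecule). Strain, sex, age and sort were the same in all 3 libraries, and the labels name no allele or treatment. Spleens were dissociated mechanically while VAT was digested with collagenase and dispase, so tissue and dissociation cannot be told apart.

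Each deposited sample is 1 cell and the labels name no animal, so a library is 1 sample and no test between tissues was possible. The tissue field of the spleen cells names spleen together with visceral adipose, and these cells were grouped by their source name. The series title also names FoxP3- conventional T cells, which no label sets apart. Foxp3, the transcription factor that defines Tregs, had a UMI in 34.7% of spleen cells, 38.8% of the cells of VAT library 2 and 31.2% of those of VAT library 3. All 13 genes of a Treg core list were detected in every library. Each library was summarised by summing UMIs over its cells and dividing by the library total, and levels are given per 10000 UMIs of the library, with exact 95% intervals that cover counting error only. A count of 0 allowed a level of up to 0.0523 to 0.0547 per 10000 UMIs, taking 3 counts as the floor.

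Some facts of the libraries move with the tissue and stand beside every ratio below. Ribosomal protein genes took 30.6% of the UMIs in spleen, 17.9% in VAT library 2 and 19.9% in VAT library 3. A list of AP-1 and immediate early genes took 0.184%, 3.07% and 2.81%, and 15 of its 16 genes with 50 or more UMIs exceeded spleen by 2-fold or more in both VAT libraries. Markers of B cells summed to 93 UMIs in spleen against 17 and 37 in the VAT libraries, with Cd79a, Ebf1 and Pax5 among those at 0. Erythroid markers summed to 2.02 per 10000 UMIs in spleen and to 1 UMI in each VAT library. Myeloid markers summed to 1.03, 2.16 and 2.30 per 10000 UMIs, most of it Cst3 (0.802, 2.01 and 2.15), with Adgre1, C1qa, C1qb and C1qc at 0. Adipocyte markers summed to 12, 10 and 11 UMIs, with Adipoq, Plin1, Cfd, Retn and Cidec at 0. Stromal and endothelial markers summed to 31, 1 and 4 UMIs, and CD8 and NK cell markers to 38, 40 and 38, with Cd8a and Ncr1 at 0. The libraries shared 3 cell barcodes, carried by 6 cells.

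As background, activated T cells raise glucose uptake and send much of the resulting pyruvate to lactate, a switch driven by antigen-receptor signals, the kinases PI3K and mTOR, and the transcription factors Myc and HIF-1. Tregs are known to rely on glycolysis less than conventional T cells do in many settings, and to need it for migration and proliferation. The steps from glyceraldehyde-3-phosphate to pyruvate are shared with other routes of carbon, and their enzymes are made in every cell type.

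Sequence bears on which of these rows can be read on their own, because several glycolytic genes have processed copies in the mouse genome. Of the 50-base stretches in the coding transcripts of each gene, Slc2a1 and Slc2a3 shared 0% with any other annotated gene, Tpi1 6.83%, Aldoa 6.57%, Ldha 10.4%, Pkm 23.7%, Pgam1 41.5%, Eno1 49.5%, Gapdh 58.4% and Pgk1 68%. Of the genes that share stretches with Tpi1, Pgk1, Pgam1 or Pkm, 0 had a row in the table. For Aldoa, Eno1 and Ldha, 1 such gene each had a row. Of the many genes that share stretches with Gapdh, 9 had a row in the table. The closest, the processed pseudogene Gm12070, matched the whole Gapdh coding sequence over 1002 bases with 1 difference, G361A counted from the first base of the start codon. The sequence around that base is shown because it is what separates the rows within the coding sequence, with the differing base in capitals (GRCm38, 5′ to 3′ on the coding strand; Gapdh at chr6:125162987-125163015 on the minus strand and Gm12070 at chr11:26786979-26787007 on the plus strand):
Gapdh: gggtcatcatctccGccccttctgccgat
Gm12070: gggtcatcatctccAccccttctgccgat

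The Gm12070 row stood at 5.58 per 10000 UMIs in spleen, 5.38 in VAT library 2 and 5.69 in VAT library 3, above the Gapdh row in each library. Across the cells of a library, thinned to 800 UMIs, counts of both rows went together with a Spearman's rho of 0.41 in spleen, 0.38 in VAT library 2 and 0.32 in VAT library 3. These are descriptions over cells that share a library, and no pair of measured members reached such a value. Whether reads of Gapdh mRNA were assigned to the Gm12070 row was not tested, and Gapdh values are given below with and without it.

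Eno1, the enolase of most tissues, lies on chromosome 4 from 150236721 to 150248879 and was nearly empty in this table, with 0 UMIs in spleen, 0 in VAT library 2 and 1 in VAT library 3. The row of the near-identical gene Eno1b held nearly all counts. Enolase is therefore read from both rows together, at 4.31, 3.20 and 3.83 per 10000 UMIs, and how the counting divided reads between them was not tested. The summed enolase rows were lower in VAT library 2 than in spleen, at a ratio of 0.743 (0.610 to 0.905). The ratio was 0.889 (0.736 to 1.07) in VAT library 3, an interval that includes 1.

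In all, the 10 rows held 1144 UMIs in spleen, 1352 in VAT library 2 and 1256 in VAT library 3. This was 19.9, 24.3 and 22.9 per 10000 UMIs, or 0.199%, 0.243% and 0.229% of the UMIs. The sum was 1.22-fold (1.13 to 1.32) the spleen level in VAT library 2 and 1.15-fold (1.06 to 1.24) in VAT library 3. It did not separate the VAT libraries from each other (ratio of library 3 to library 2 0.941, 0.871 to 1.02). Against the total without ribosomal protein genes, the same ratios were 1.03 (0.953 to 1.12) and 0.995 (0.918 to 1.08). That total moves every gene of a library by the same factor, so whether the excess went with the ribosomal share was not tested. Among genes with enough UMIs (defined below), the median log2 ratio of this set moved from 0.45 to 0.20 in VAT library 2. In VAT library 3 it moved from 0.27 to 0.07. That of all genes moved from 0.04 to -0.20 and from -0.02 to -0.23. Against the full total, adding the Eno1b and Gm12070 rows gave 1.10 (1.03 to 1.18) and 1.09 (1.02 to 1.16).

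The sum was also read for transporters and enzymes apart, with most of the transporter UMIs from Slc2a3 and most of the enzyme UMIs from Pkm, Gapdh and Ldha. The 2 transporters together stood at 0.697 per 10000 UMIs in spleen, 2.55 in VAT library 2 and 1.79 in VAT library 3. They were 3.66-fold (2.56 to 5.34) and 2.56-fold (1.76 to 3.8) the spleen level. The 8 enzyme rows together held 1104, 1210 and 1158 UMIs and were 1.13-fold (1.04 to 1.23) and 1.10-fold (1.01 to 1.19). With Eno1b added, the enzyme ratios were 1.06 (0.983 to 1.14) and 1.06 (0.980 to 1.14). Between the VAT libraries, the transporters stood in library 3 at 0.699 (0.535 to 0.911) of their level in library 2, and the enzymes at 0.970 (0.894 to 1.05). Within the enzyme sum Pkm was lower in library 3, at 0.828 (0.709 to 0.966), and Gapdh was at 1.18 (0.991 to 1.41).

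**Figure D1:**
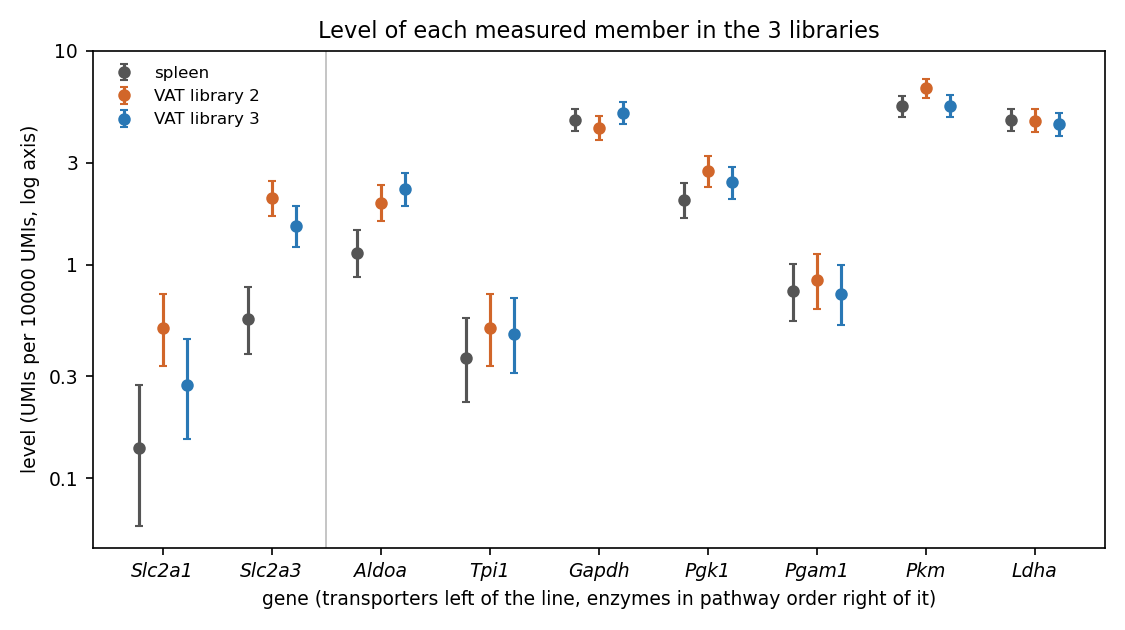
Level of each measured gene in UMIs per 10000 UMIs of its library (log axis) in the spleen library, VAT library 2 and VAT library 3, with exact Poisson 95% intervals that cover counting error only. Slc2a3 stands at 0.558 in spleen and at 2.05 and 1.51 in VAT, while Gapdh, Pkm and Ldha lie between 4.35 and 6.67 in all 3 libraries.

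A gene was counted as higher or lower when it was at least 2-fold apart from spleen in the same direction in both VAT libraries, on a log2 scale with 0.5 added to each count, among genes with 50 or more UMIs over the 3 libraries. Of all 4635 such genes, 10.3% were higher and 4.4% lower (8.18% and 7.38% against the total without ribosomal protein genes). Of the 10 glycolytic and transport genes, 9 had enough UMIs, 1 was higher (Slc2a3) and 0 were lower, a share near that of all genes. Slc2a1 was among the 9 with 51 UMIs, most of them from the VAT libraries. It thus entered the counts and the median below through the libraries where it was high. Between the VAT libraries, 0 of the 9 were 2-fold apart, beside 4.34% of all genes. By any amount, 6 of the 9 were higher in both VAT libraries, against 41.3% of all genes, and 1 (Ldha) was lower in both. Their median log2 ratio was 0.45 in VAT library 2 and 0.27 in VAT library 3, beside 0.04 and -0.02 over all genes. Slc2a3, Slc2a1 and Aldoa were above spleen in both VAT libraries under each of the 13 alternative settings run. Each of the other 6 genes changed sign in at least 1 VAT library under at least 1 of them.

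Slc2a3, which encodes the high-affinity glucose transporter GLUT3, lies on chromosome 6 from 122727809 to 122801640 on the minus strand. It stood at 0.558 per 10000 UMIs in spleen, from 32 UMIs, at 2.05 in VAT library 2 and at 1.51, from 83 UMIs, in VAT library 3. Both VAT libraries were high, and their intervals (1.69 to 2.46 and 1.20 to 1.87) lay above that of spleen (0.382 to 0.788). The ratios to spleen were 3.67 (2.46 to 5.62) and 2.71 (1.78 to 4.21), or 1.86 and 1.43 on the log2 scale. Library 3 stood at 0.738 (0.549 to 0.988) of library 2, so the VAT libraries also differed by slightly more than counting error. Slc2a3 passed the 2-fold rule under every alternative setting run, with log2 ratios from 1.62 to 1.98 in VAT library 2 and from 1.22 to 1.61 in VAT library 3.

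More cells held a Slc2a3 transcript in VAT. With every cell thinned to 800 UMIs, the share of cells with a Slc2a3 UMI was 5.6% (3.50 to 8.43) in spleen, and 14.5% (10.9 to 18.8) and 10.5% (7.35 to 14.4) in VAT libraries 2 and 3. Before thinning the shares were 7.20%, 24.5% and 15.9%, in cells whose median depth was 1423, 1565 and 1611 UMIs. The cells with a transcript also held more of it, at 1.19 UMIs per such cell in spleen, 1.41 in VAT library 2 and 1.66 in VAT library 3 before thinning. No T cell should make globin, and Hba-a2 had a UMI in 6.4% of thinned spleen cells and in none of the VAT cells. The spleen shares of Slc2a3, Slc2a1, Aldoa, Tpi1 and Pgam1 were at or below that value. Free RNA of these genes in the droplets was not measured, so its part in their shares was not tested.

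Slc2a1, which encodes the glucose transporter GLUT1 that activated T cells raise, lies on chromosome 4 from 119108711 to 119137983 on the plus strand. It was scarce, with 8 UMIs in spleen, 28 in VAT library 2 and 15 in VAT library 3 (0.139, 0.504 and 0.273 per 10000 UMIs). It was higher in VAT library 2, at 3.61-fold (1.60 to 9.17), while the ratio of 1.96 (0.780 to 5.34) in VAT library 3 had an interval that includes 1. The gene missed the 2-fold rule with a log2 ratio of 0.93 in library 3 and passed it under trimmed mean of M values scaling and under the mean of the cells' own shares. Its log2 ratios were 2.38 and 1.29 in cells with a Foxp3 UMI. Without cells holding a marker of another cell type they were 1.33 and 1.06. In both subsets the gene was not called for want of UMIs. In thinned cells 0.8%, 3.94% and 1.59% had a UMI. Of the UMIs of both transporters, Slc2a3 supplied 80% (64.4 to 90.9) in spleen, and 80.3% (72.8 to 86.5) and 84.7% (76 to 91.2) in VAT libraries 2 and 3, so the balance between them differed by less than counting error.

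Aldoa, the aldolase that splits fructose-1,6-bisphosphate, showed the largest VAT ratios among the enzyme rows. It lies on chromosome 7 from 126795234 to 126800751 on the minus strand, and its exons overlap Fam57b on the other strand. It stood at 1.13 per 10000 UMIs in spleen, from 65 UMIs, at 1.94 in VAT library 2 and at 2.26 in VAT library 3. The intervals of both VAT libraries, 1.59 to 2.34 and 1.88 to 2.69, lay above that of spleen, 0.875 to 1.44. The ratios were 1.71 (1.25 to 2.37) and 1.99 (1.47 to 2.74), just short of 2-fold in library 3 (log2 0.99). In cells with a Foxp3 UMI, Aldoa passed the rule. In thinned cells 6.13% (3.93 to 9.06) had a UMI in spleen against 12.1% (8.80 to 16.1) and 13.1% (9.54 to 17.3) in VAT.

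Tpi1 and Pgk1 follow in the pathway. Tpi1, which interconverts the triose phosphates, had 21, 28 and 26 UMIs and ratios of 1.38 (0.753 to 2.55) and 1.29 (0.700 to 2.42), which counting error does not separate from 1. Pgk1, the kinase that makes the first ATP of the pathway and is encoded on chromosome X from 106187100 to 106203699, stood at 2.0, 2.73 and 2.42 per 10000 UMIs. Its ratios were 1.36 (1.06 to 1.75) and 1.21 (0.935 to 1.57), and the second interval includes 1. Its transcripts were concentrated in few cells: only 15.2%, 19.7% and 17.2% of cells had a UMI before thinning, at 2.02, 2.34 and 2.46 UMIs per such cell. The variance of its thinned counts was 1.62, 1.97 and 1.97 times the mean, the highest among the 9 genes in both VAT libraries.

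Gapdh, the dehydrogenase often used as a reference gene, lies on chromosome 6 from 125161715 to 125166467 on the minus strand. It stood at 4.76 per 10000 UMIs in spleen, 4.35 in VAT library 2 and 5.14 in VAT library 3. The ratios of 0.914 (0.766 to 1.09) and 1.08 (0.911 to 1.28) fell on opposite sides of 1, and both intervals include it. Together with Gm12070 the counts were 593, 541 and 594, with ratios of 0.941 (0.836 to 1.06) and 1.05 (0.933 to 1.18). In thinned cells 28.8%, 27.6% and 32.2% had a Gapdh UMI, shares that differed by less than counting error.

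Pgam1, the phosphoglycerate mutase on chromosome 19, had 43, 47 and 40 UMIs and ratios of 1.13 (0.730 to 1.75) and 0.972 (0.616 to 1.53). Pkm, the pyruvate kinase gene on chromosome 9 from 59656368 to 59679375, had the most UMIs of the 10 rows in every library. Its level was 5.49 per 10000 UMIs in spleen, 6.67 in VAT library 2 and 5.52 in VAT library 3. VAT library 2 was high, at 1.21 times spleen (1.04 to 1.42), while VAT library 3 was level with spleen (1.01, 0.856 to 1.18) and stood at 0.828 (0.709 to 0.966) of library 2. The count table does not separate the splice forms PKM1 and PKM2.

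Ldha, the subunit that favours lactate formation, lies on chromosome 7 from 46841475 to 46855627 on the plus strand. Its level was 4.74 per 10000 UMIs in spleen, 4.71 in VAT library 2 and 4.54 in VAT library 3. The libraries overlapped, with ratios of 0.994 (0.835 to 1.18) and 0.957 (0.803 to 1.14). Its partner subunit Ldhb, which is tied to oxidation of lactate, had 36 UMIs in spleen and 10 in each VAT library, and so was lower by 3.49-fold (1.70 to 7.88) in library 2 and by 3.44-fold (1.67 to 7.78) in library 3. Of the UMIs of both subunits, Ldha supplied 88.3% (84.2 to 91.7) in spleen, and 96.3% (93.3 to 98.2) and 96.1% (93 to 98.1) in VAT libraries 2 and 3. The balance of the lactate dehydrogenase subunits differed between tissues through Ldhb, while Ldha was level.

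**Figure D2:**
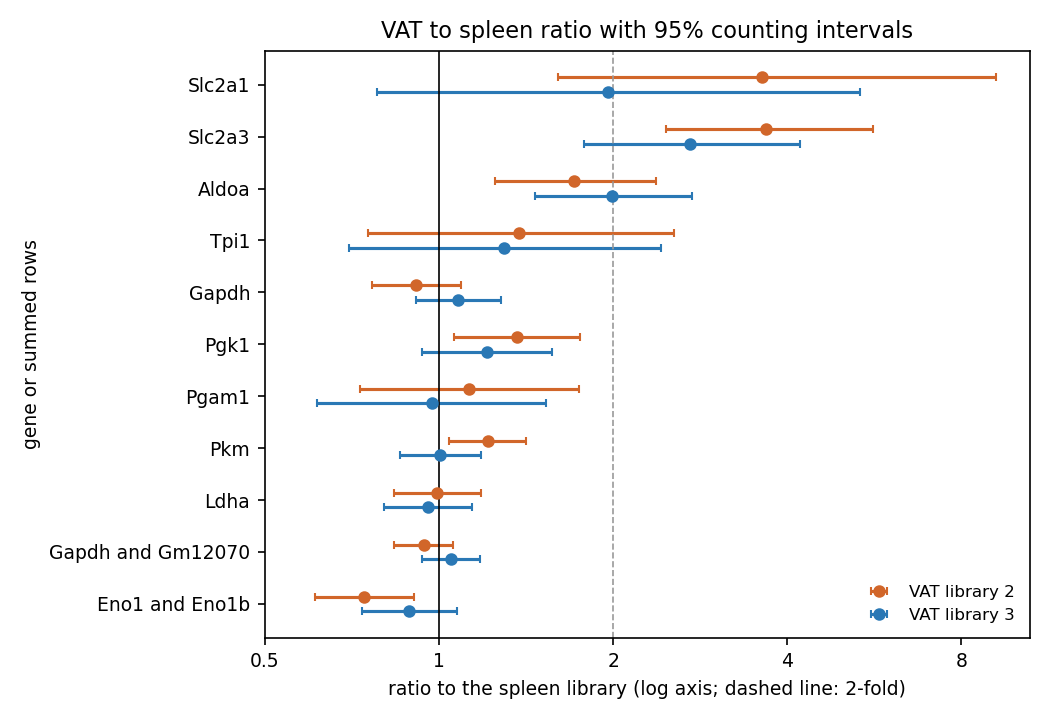
Ratio of each VAT library to the spleen library (log axis) with exact 95% counting intervals, for the 9 genes with enough UMIs and for Gapdh and Eno1 summed with a near-identical row. The intervals of Slc2a3 and Aldoa lie above 1 in both VAT libraries, and those of Gapdh and Ldha include 1 in both.

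The order of the rows by UMIs was much alike in the libraries. Pkm had the highest level in each. Gapdh and Ldha followed within counting error of each other, Ldha above Gapdh in VAT library 2 and below it elsewhere, and Pgk1 had rank 4 in each library. Slc2a3 had rank 7 in spleen, 5 in VAT library 2 and 6 in VAT library 3, where Aldoa stood above it. These are counts of captured molecules, not divided by transcript length, since capture started at the poly(A) tail. By the distance between log2 levels (with 0.1 per 10000 UMIs added) over the 3 libraries, the genes most like Slc2a3 were Mif4gd (0.628, 1.82 and 1.51 per 10000 UMIs), Trp53i11 (0.645, 1.87 and 1.44), Ly6c2 (0.593, 1.92 and 1.86), Vmp1 (0.540, 2.14 and 1.90) and Tuba4a (0.610, 1.64 and 1.62).

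The surrounding pathway was read from 8 lists, in which 58 genes had enough UMIs. Of these 58, 5 were higher and 3 lower, beside 10.3% and 4.4% of all genes, and the median log2 ratios were 0.10 and -0.02. No enzyme of the preparatory steps, of the pentose phosphate and serine routes or of the TCA cycle passed the rule (0 of 5, 0 of 9 and 0 of 15). The 9 further glucose transporter genes were scarce: Slc2a8 had 3, 7 and 12 UMIs, Slc2a9 4, 4 and 3, and Slc2a4, the insulin-responsive transporter of fat and muscle, 2, 0 and 3.

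Among the preparatory enzymes, hexokinase Hk1 had 71, 70 and 54 UMIs and phosphofructokinase Pfkp 35, 44 and 32, and the isomerase Gpi1 stood at 2.60, 2.50 and 1.97 per 10000 UMIs. Of these only Gpi1 in VAT library 3 differed from spleen beyond counting error, at a ratio of 0.758 (0.586 to 0.977). Ogdh, the TCA cycle enzyme with the most UMIs, had 580, 411 and 419, at ratios of 0.731 (0.643 to 0.831) and 0.755 (0.664 to 0.858). Sdha (2.09, 1.80 and 1.93 per 10000 UMIs) and Mdh1 (3.12, 2.61 and 3.10) had intervals that include 1. In the pentose phosphate and serine list, Pgls had 45, 66 and 59 UMIs, Tkt 81, 67 and 62, and Taldo1 94, 78 and 78.

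Of the genes that decide the fate of pyruvate, 0 of 6 were higher and 1 was lower, beside 10.3% and 4.4% of all genes. Their median log2 ratios were 0.21 and 0.46, beside 0.04 and -0.02 over all genes. The gene that was lower was Pdk1, a kinase that inhibits pyruvate dehydrogenase, at 33, 15 and 6 UMIs (lower by 2.13-fold, 1.13 to 4.23, and 5.26-fold, 2.18 to 15.4). Mpc1, a subunit of the mitochondrial pyruvate carrier, was above spleen with 28, 61 and 44 UMIs and ratios of 2.25 (1.42 to 3.65) and 1.64 (1.0 to 2.74), short of the rule in library 3. Bsg, the chaperone of lactate transporters, had 44, 61 and 64 UMIs, and the pyruvate dehydrogenase subunit Pdha1 37, 39 and 45. Of the other isoenzymes, Bpgm had 30, 26 and 31 UMIs and Aldoc 6, 3 and 7.

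Of the regulators, 4 of 15 were higher and 1 was lower, beside 10.3% and 4.4% of all genes. Myc, which activates glycolytic genes in dividing lymphocytes, had 22, 77 and 65 UMIs, at ratios of 3.61 (2.22 to 6.09) and 3.09 (1.88 to 5.26). Irf4, a transcription factor induced by antigen-receptor signals, had 10, 75 and 61 UMIs, at 7.74-fold (3.98 to 16.8) and 6.38-fold (3.24 to 14). Bhlhe40, a transcription factor of activated T cells, had 9, 39 and 22 UMIs, at 4.47-fold (2.13 to 10.5) and 2.56-fold (1.13 to 6.30).

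Egln3, an oxygen-sensing prolyl hydroxylase that is itself a HIF target, had 1, 26 and 28 UMIs, at ratios of 26.8 (4.41 to 1100) and 29.3 (4.84 to 1197). It reached 50 UMIs only through the VAT libraries, and it was not called in cells with a Foxp3 UMI, without the 5% of cells with the most UMIs or without cells holding a marker of another cell type. Bhlhe40, Pdk1 and Ldhb were not called in the first and last of these subsets. The filter of 50 UMIs was applied anew to each subset. In cells with a Foxp3 UMI, Egln3 had log2 ratios of 4.70 and 5.01, Bhlhe40 1.43 and 1.25, and Ldhb -3.33 and -3.02. These stayed past 2-fold and were not called for want of UMIs. Pdk1 was at -0.78 and -2.05 there, short of 2-fold in VAT library 2. Ndrg1, the 1 gene of 6 in the hypoxia list that was higher, had 16, 83 and 84 UMIs, at 5.35-fold (3.11 to 9.79) and 5.49-fold (3.19 to 10), while Bnip3l (2.02, 2.18 and 1.99 per 10000 UMIs) and Ddit4 (50, 62 and 39 UMIs) had intervals that include 1. Foxo1, a transcription factor of resting T cells that is switched off by PI3K signals, had 250, 81 and 52 UMIs and was lower by 2.99-fold (2.32 to 3.89) and 4.60-fold (3.40 to 6.33). Akt1 was above spleen without reaching 2-fold (1.06, 2.03 and 1.73 per 10000 UMIs), and Txnip, an inhibitor of glucose uptake, stood at 3.02, 2.90 and 2.37. Several of these regulators are known to answer the same activation signals as the AP-1 list, which was higher in the digested tissue, and the part of that list in these values was not tested.

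**Figure D3:**
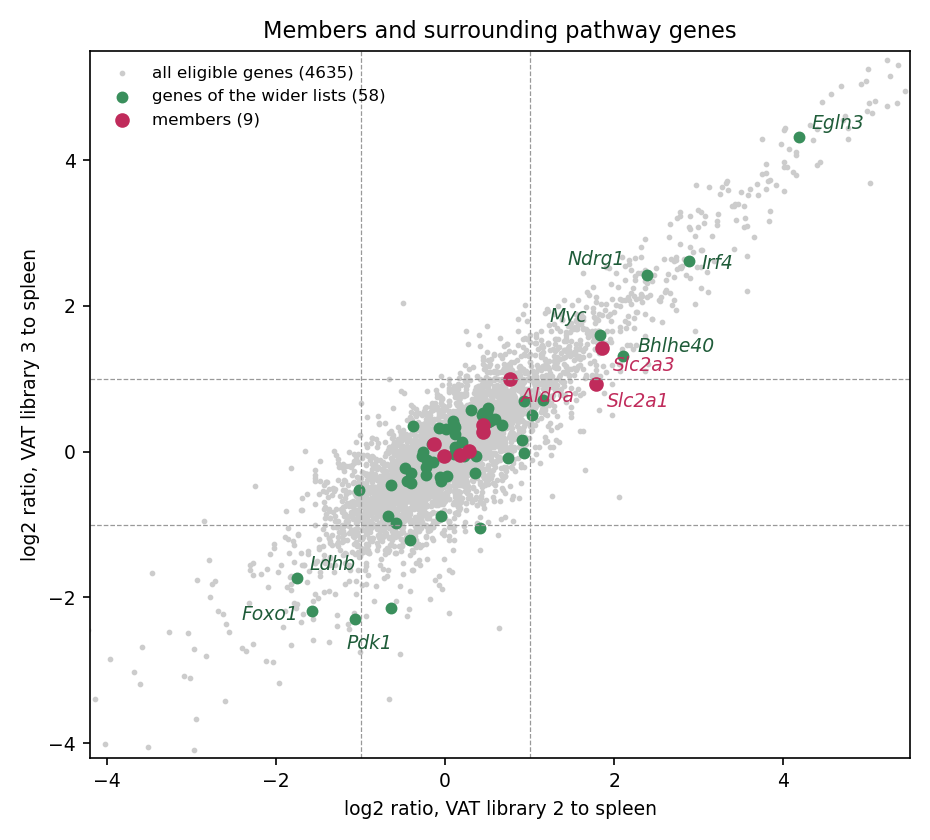
The log2 ratio to spleen in VAT library 2 (horizontal) and VAT library 3 (vertical) of all 4635 genes with enough UMIs (grey), of 58 genes of the wider lists (green) and of the 9 members with enough UMIs (red), with dashed lines at 2-fold. Slc2a3 sits past 2-fold in both libraries at 1.86 and 1.43, and most members and pathway genes lie inside the dashed square.

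Promoters were searched for ACGTG, a form of the core of the HIF site, on both strands of the 250 bases before each start (RefSeq, GRCm38.p6). The other form, GCGTG, was not searched. The table held 15 windows for 9 of the 10 genes, and Slc2a3 had none. ACGTG was in 7 of these windows, from 6 genes, beside 16.6% of 32851 windows of all genes. Among the 7 are 2 overlapping Aldoa windows that hold the same match. The letters ACGTG also lie within the E-box CACGTG of Myc, which was in 6.02% of all windows and in none of the Aldoa windows. The windows of Ldha and Pgk1 are shown as those with the most matches, in capitals (Ldha at chr7:46845554-46845803 and Pgk1 at chrX:106186850-106187099, both on the plus strand and free of annotated exons):
Ldha: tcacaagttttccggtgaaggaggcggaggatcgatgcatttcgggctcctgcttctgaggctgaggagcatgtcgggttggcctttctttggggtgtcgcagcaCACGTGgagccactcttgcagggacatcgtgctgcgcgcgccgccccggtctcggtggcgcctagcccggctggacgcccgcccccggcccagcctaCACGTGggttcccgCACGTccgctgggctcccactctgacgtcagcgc
Pgk1: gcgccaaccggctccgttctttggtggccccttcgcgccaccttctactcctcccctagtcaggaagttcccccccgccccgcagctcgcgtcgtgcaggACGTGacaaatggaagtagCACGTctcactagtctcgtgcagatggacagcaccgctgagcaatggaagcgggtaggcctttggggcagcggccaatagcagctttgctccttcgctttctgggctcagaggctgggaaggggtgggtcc

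The Ldha window held 5 matches counted on both strands, 4 of them from 2 palindromic CACGTG sites, and the Pgk1 window held 2. Ldha was level between the tissues and Pgk1 was 1.36-fold and 1.21-fold the spleen level. A match describes these letters and is neither a bound site nor a cause. The Gapdh window held 0 matches of ACGTG, but the letters GCGTG occur in it.

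Most cells held a transcript of at least 1 of these genes. In cells thinned to 800 UMIs, a mean of 1.13 of the 10 genes had a UMI in spleen, 1.38 in VAT library 2 and 1.27 in VAT library 3. Cells with none made up 29.9% (25.3 to 34.8) of spleen, and 19.7% (15.5 to 24.4) and 24.5% (19.9 to 29.7) of VAT libraries 2 and 3, and 14.1%, 7.88% and 6.69% before thinning. Cells with 3 or more made up 9.87%, 14.2% and 12.1%, and the most in 1 cell was 5. The variance of the summed counts was 1.47, 1.34 and 1.60 times the mean.

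**Figure D4:**
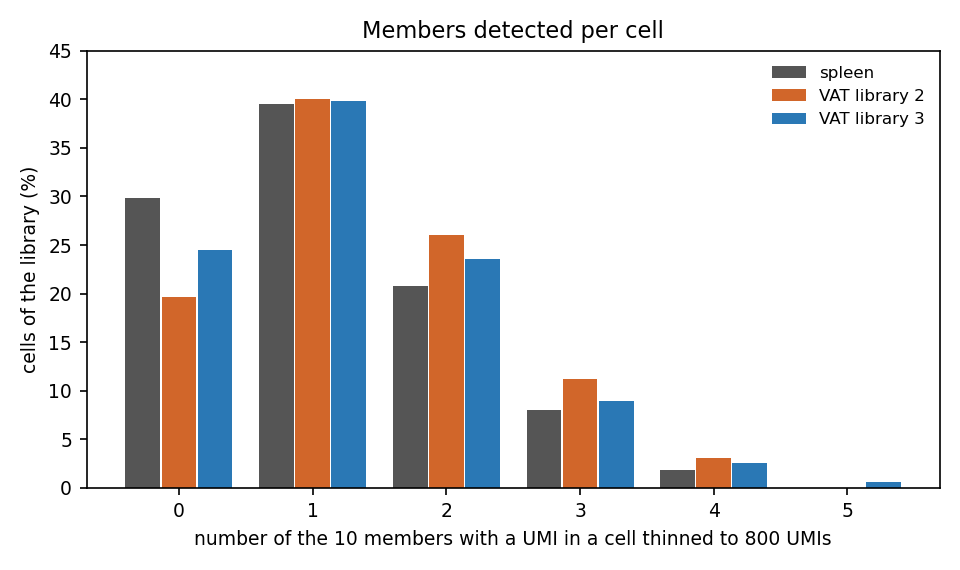
Share of the cells of each library (%) by how many of the 10 genes had a UMI after thinning to 800 UMIs per cell. Cells with none make up 29.9% in spleen, 19.7% in VAT library 2 and 24.5% in VAT library 3.

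The genes did not rise and fall together from cell to cell to a degree these counts could show. Over the 36 pairs of 9 genes, Spearman's rho across thinned cells had a median of -0.01 in spleen, -0.01 in VAT library 2 and 0.01 in VAT library 3. The pairs ranged from -0.11 to 0.15, from -0.13 to 0.08 and from -0.08 to 0.13. Such values in sparse counts are no finding. The summed genes had a rho with the AP-1 list of 0.05, 0.04 and -0.03, and with ribosomal protein genes of -0.18, -0.09 and 0.00.

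Cells were also split by a UMI of a gene outside the set. The clearest split was by Tnfrsf9, which encodes the receptor 4-1BB of antigen-activated Tregs. In spleen the 61 cells with a Tnfrsf9 UMI held 28.3 UMIs of the summed genes per 10000 UMIs against 18.2 in the cells without. In VAT library 2 the 37 cells with it held 31.2 against 23.3, and in VAT library 3 the 17 cells with it held 34.3 against 22.1. The ratios were 1.56 (1.36 to 1.78), 1.34 (1.16 to 1.55) and 1.55 (1.28 to 1.87), higher in all 3 libraries. A class set by 1 UMI is a detection class and not a cell type, and its intervals treat pooled cells and cover counting error only.

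By gene, Pkm, Ldha, Gapdh, Tpi1 and Pgam1 were higher by any amount in the cells with Tnfrsf9 in all 3 libraries. This is 5 of 9 beside 11.1% of 4634 genes, which were not matched to the 9 by level, so the shares are not alike. Tpi1 rested on 4, 5 and 5 UMIs in those cells, with intervals that include 1 in every library. Pgam1 was 2.29-fold (1.12 to 4.47) in spleen, with intervals that include 1 in both VAT libraries. Pkm was 1.53-fold (1.17 to 1.99), 1.52-fold (1.16 to 1.99) and 1.75-fold (1.18 to 2.50). Ldha was 1.20-fold (0.876 to 1.62), 1.42-fold (1.01 to 1.96) and 2.26-fold (1.53 to 3.24), and Gapdh 1.89-fold (1.44 to 2.48), 1.40-fold (0.980 to 1.96) and 1.29-fold (0.809 to 1.96). Slc2a3, the gene that differed most between tissues, was not separated by Tnfrsf9, at 1.33 (0.484 to 3.15), 0.785 (0.393 to 1.43) and 1.68 (0.740 to 3.37).

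Cells with Tnfrsf9 were deeper, with medians of 1465 against 1421.5 UMIs in spleen, 2011 against 1542 in VAT library 2 and 1701 against 1601 in VAT library 3. With each cell thinned, the spleen ratio was 1.63 (1.34 to 1.98), that of VAT library 3 1.45 (1.03 to 1.99), and that of VAT library 2 1.21 (0.948 to 1.53), an interval that includes 1. Without the 5% of cells with the most UMIs (like the thinning, an alternative chosen after seeing the data), the ratios were 1.66 (1.42 to 1.93), 1.37 (1.16 to 1.60) and 1.33 (0.994 to 1.74), and the last interval includes 1. Without ribosomal protein genes in the total they were 1.47, 1.32 and 1.52. Markers of other cell types stood at 7.10 against 5.87 per 10000 UMIs in spleen, 5.66 against 3.06 in VAT library 2 and 3.78 against 3.97 in VAT library 3. Without cells holding such a marker the ratio was 1.35 (1.05 to 1.72), 1.29 (1.02 to 1.61) and 1.53 (1.16 to 1.98).

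Other splits separated the sum less. Cells with a UMI of Il1rl1, the gene of ST2, through which tissue Tregs respond to IL-33, had ratios of 1.15 (1.02 to 1.30) and 1.11 (0.978 to 1.26) in the VAT libraries, and 0.652 (0.407 to 0.992) in spleen, where 12 cells had it. In VAT library 2 the genes went apart: Pkm was 1.55-fold (1.21 to 2.0) and Aldoa 1.82-fold (1.12 to 3.09) in cells with Il1rl1, while Pgk1 was at 0.604 (0.433 to 0.848). In VAT library 3 Pkm was at 1.22 (0.942 to 1.60), Aldoa at 0.976 (0.659 to 1.47) and Pgk1 at 1.08 (0.733 to 1.61), with intervals that include 1.

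Splits by Klrg1, a receptor of terminally differentiated Tregs, by Foxp3 and by a proliferation list gave ratios of the sum from 0.865 to 1.07, with intervals that include 1 in every library. Most cells of every library held a UMI of the proliferation list, so this class is not read as dividing cells. Slc2a3 stood lower in cells with a UMI of the list in VAT library 2, at 0.530 (0.361 to 0.781). It was at 0.659 (0.415 to 1.06) in VAT library 3 and at 1.09 (0.488 to 2.69) in spleen, with intervals that include 1. Pkm in VAT library 3 also stood lower in those cells, at 0.680 (0.535 to 0.867), while in VAT library 2 it was at 1.16 (0.926 to 1.47). Pgk1 stood higher in those cells in spleen, at 2.03 (1.25 to 3.48), against 1.07 (0.749 to 1.54) and 0.983 (0.668 to 1.47) in the VAT libraries. These intervals cover counting error in pooled cells only, and not the concentration of Pgk1 transcripts in few cells.

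**Figure D5:**
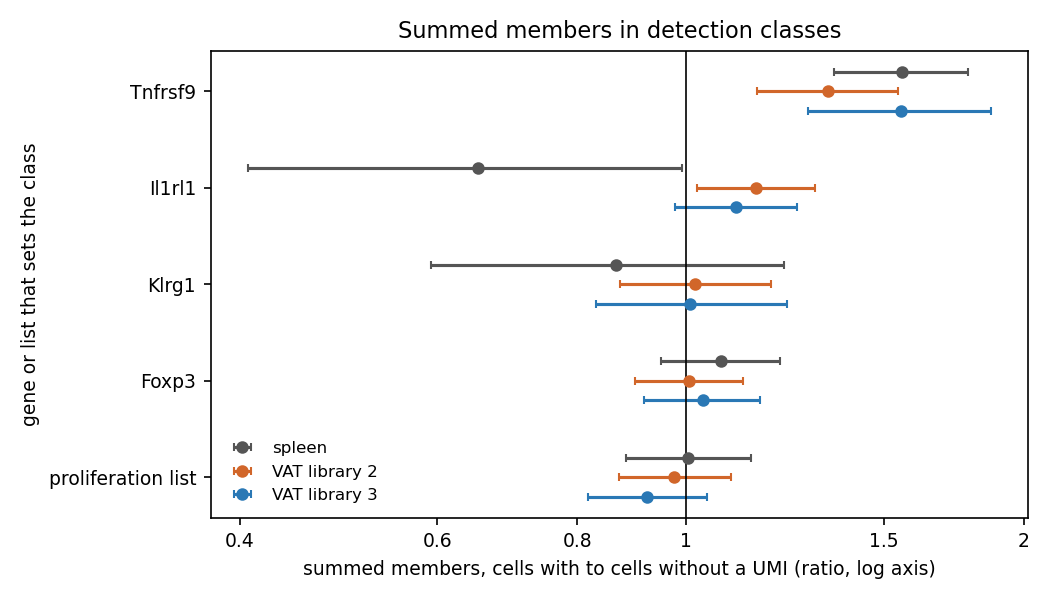
Ratio of the summed genes in cells with to cells without a UMI of a gene or list (log axis) in each library, with exact 95% counting intervals. The Tnfrsf9 ratios of 1.56, 1.34 and 1.55 lie above 1 in all 3 libraries, and those for Klrg1, Foxp3 and the proliferation list have intervals that include 1.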

How the data were processed

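Per the labels' protocols, oligo dT captured mRNA in droplets, and libraries were amplified by transcription in vitro and run on a NextSeq500. Raw UMI counts are the deposited unit, in a table of gene symbols by cells; the other deposited table repeats label values and was not used. TopHat2, SAMtools and the build mm10 are named, without versions, per the submitters' processing notes. The counting annotation, use of strand, handling of reads with several matches, cell filter and doublet removal are not given in the sources used here, and no doublet caller was run.

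Tissue was taken from each cell's source name, and the VAT library from its title. The labels name no animal, so values have no replicate error and no p-value was computed. UMIs were summed per library and divided by its total; cells held 819 to 4973 UMIs. Sums have exact Poisson, shares exact Clopper-Pearson and ratios exact conditional binomial 95% intervals. Ratios add nothing to the counts, and log2 ratios add 0.5. Shares of cells use cells thinned to 800 UMIs (seed 1). The table held 23725 symbols, 13281 with a UMI, and 4635 with the 50 UMIs asked for. Positions and shared stretches of 50 bases came from GENCODE M21. Python 3.11.15, numpy 2.4.6, pandas 2.3.3, scipy 1.17.1 and matplotlib 3.10.9 were used, and edgeR 4.0.16 and DESeq2 1.42.0 in R 4.3.3 supplied alternative scaling factors only. The scripts were tested on simulated data.

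All 10 genes are named, with every gene of the wider lists past the 2-fold rule, the 3 genes with most UMIs in each list, the 5 genes nearest to Slc2a3 and those most like the summed genes over cells; some items under this rule are not reported here. The genes and lists were chosen with earlier results of these data known.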

Additional observations from a re-analysis of the deposited data

How the results depend on the processing

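Slc2a3 passed the 2-fold rule under every alternative run. The number of the 10 genes called higher, 1 in the analysis above, was 2 under trimmed mean of M values scaling, under the mean of the cells' own shares and without VAT library 3 (Slc2a1 joined), and 2 in cells with a Foxp3 UMI (Aldoa joined). With VAT library 2 or 3 left out it ranged from 1 to 2, the number lower stayed at 0, the shares of all genes were 12.8% to 13.5% higher and 7.40% to 8.82% lower, and the wider lists 5 to 7 higher and 4 to 6 lower. Of the 4635 genes tested, 10.3% were higher and 4.4% lower in the analysis above, and 8.18% and 7.38% without ribosomal protein genes in the total. The shares were 10.5% and 6.45% of 7429 genes with 20 or more UMIs, and 11.1% and 14.4% of 13281 with no filter. With fewer cells, fewer genes had enough UMIs: 13% and 4.08% of 1938 genes in cells with a Foxp3 UMI, and 13.5% and 3.92% of 2752 without cells holding a marker of another cell type. The wider lists, with 5 higher and 3 lower, gave 5 lower with 20 or more UMIs, 9 with no filter, 3 higher and 1 lower in cells with a Foxp3 UMI, and 1 lower without cells holding a marker. Leaving ribosomal protein genes out of the total moved the median log2 ratio of all genes from 0.04 to -0.20 in VAT library 2 and from -0.02 to -0.23 in VAT library 3. It moved the summed genes to 1.03 and 0.995 times spleen. Under trimmed mean of M values scaling the summed genes were 1.26 and 1.22 times spleen, and under median-of-ratios scaling 1.23 and 1.20 times. Without AP-1 and immediate early genes in the total they were 1.26 and 1.18 times spleen. Adding the Eno1b and Gm12070 rows, an alternative chosen after seeing the data, gave 1.10 in VAT library 2. The Tnfrsf9 ratio in spleen was 1.35 without cells holding a marker. No paired analysis was possible because number 2, the single number that spleen and VAT titles share, is not tied to an animal. Depth limits Slc2a1, Slc2a3, Tpi1 and Pgam1, whose intervals span more than 2-fold, and the library is the unit, so variation between animals is unknown.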

Other observations

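Among 1228 genes with 200 or more UMIs outside the set, those whose counts went most with the summed genes over thinned cells, ranked by their smallest Spearman's rho over the 3 libraries, included Gm12070, Sepp1, Tnfrsf9 and Mif. Gm12070, the Gapdh copy, had a rho of 0.28 in spleen, 0.20 in VAT library 2 and 0.15 in VAT library 3, and against the summed genes without Gapdh 0.11, 0.07 and -0.02. Tnfrsf9 had 0.14, 0.06 and 0.08, and Mif, a cytokine gene, 0.16, 0.11 and 0.05. These are descriptions over cells of the same libraries.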
